A study of Rattus norvegicus with 42 samples.

Results

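Transcription start sites of the rat soleus after 1 day of reloading (R1) were compared with those at the end of 7 days of hindlimb unloading (D7). The comparison took every deposited TSS peak outside the mitochondrial chromosome, 9969 of the 9971 peaks of the series, in 3 R1 libraries (rats U18, U20 and U21) and 3 D7 libraries (rats U1, U2 and U3). All rats were mature Wistar rats of 1 strain, and both groups had hung by the tail for 7 days. The D7 rats were killed at that point, and the R1 rats had then moved freely on their hindlimbs for 24 hours. The same 6 rats also gave the extensor digitorum longus (EDL), a fast muscle. The whole series held 42 libraries from 21 rats in 14 groups of 3. Its control rats were not unloaded, D1 rats hung for 24 hours and D3 rats for 3 days. R3 and R7 rats were unloaded like the R1 rats, but their reloading lasted longer, until day 3 (R3) or day 7 (R7). Each library came from a different rat within its muscle, so the spread between replicates includes differences between animals. The muscles were taken whole, so the tags come from fibres and from every other cell type of the muscle, and fewer cells of a type cannot be told apart from less RNA per cell. The labelled tissue was not checked against marker genes, because an annotation of Rnor_6.0, the genome build of the files, was not used here. Peaks are therefore given by their position on Rnor_6.0 and not by gene, except in 2 gene windows.

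The soleus is a postural muscle rich in slow fibres, and it atrophies readily when the hindlimbs bear no weight. On reloading, the weakened fibres carry the body again, and this early phase is known for mechanical stress, repair and the entry of other cells. The CAGE method (cap analysis of gene expression) sequences the first bases of RNAs that carry a cap, so a cluster of tags marks a promoter in use, and in strongly expressed muscle genes further clusters lie along the body of the transcript.

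The 6 soleus libraries held 4868926 to 18200465 tags, with 4868926 to 10407753 at D7 and 12558292 to 18200465 at R1, and from 77.6% (U3) to 93% (U20 and U21) of the tags of a library fell in the deposited peaks. Levels are given as CPM, the tags of a peak relative to all tags in peaks of its library after TMM scaling of the 21 soleus libraries. All D7 libraries of soleus were in sequencing lane 3 and all R1 libraries in lane 4 of the library names, so the lane and the phase cannot be told apart in this comparison. Values of other phases run in the same lanes are given beside the results below.

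A peak was called when edgeR's quasi-likelihood test gave a Benjamini-Hochberg adjusted p under 0.05 and the fold change was over 2.38 in either direction. Of 9840 peaks that passed the filter on low counts, 2285 (23.2%) were called, 1532 higher (15.6%) and 753 lower (7.65%) at R1. The median log2 fold change over all tested peaks was 0.01, and the groups did not overlap in 54.9% of them. The rises were larger than the falls. The called rises had a median log2 fold change of 2.31, and 374 of them were over 4, while the called falls had a median of −1.70, and 24 of them were over 4 in size. In 1506 of the 1532 rises every R1 library lay above every D7 library, and in 727 of the 753 falls every R1 library lay below. With tag totals in place of TMM scaling the median of all peaks shifted to 0.25, and 79.7% of 2308 calls were higher, against 67% under TMM.

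**Figure D1:**
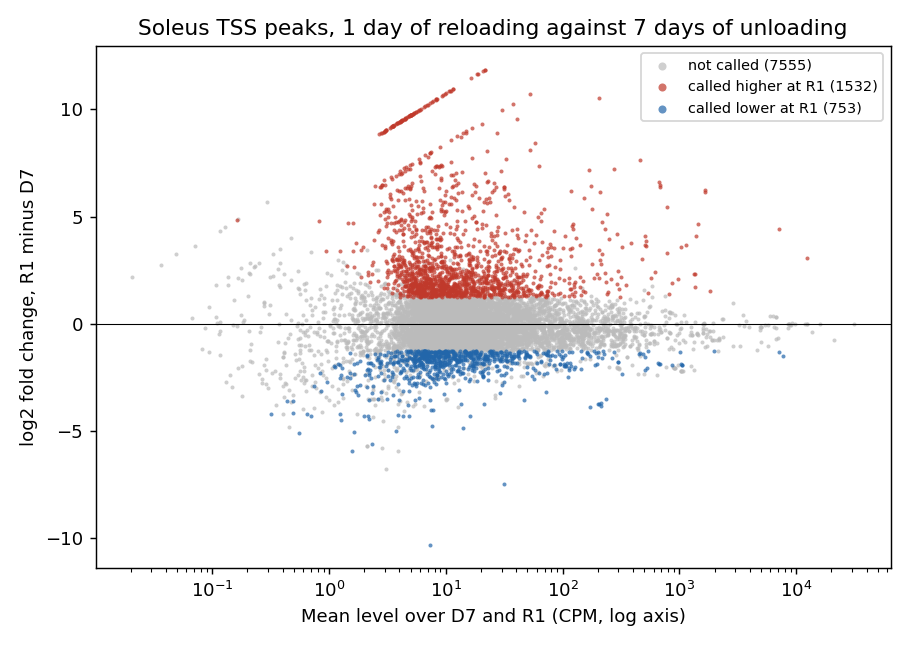
Each point is 1 of 9840 tested TSS peaks, placed by its mean level over the D7 and R1 groups (CPM, log axis) and its log2 fold change (R1 minus D7). The 1532 red points were called higher and the 753 blue points lower at R1, and the slanted line of red points at the top is made of peaks with 0 tags in every D7 library.

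The rises held 2.15%, 2.40% and 1.86% of the tags in peaks of U1, U2 and U3 at D7. At R1 they held 22.7%, 13.3% and 11.3% in U18, U20 and U21. The falls held 7.34%, 7.43% and 7.44% at D7 and 2.57%, 2.57% and 2.67% at R1. By number, the rises were 15.6% and the falls 7.65% of the tested peaks. The rises together held 20151, 19632 and 19220 CPM in U1, U2 and U3 at D7, and 209180, 107986 and 95129 CPM in U18, U20 and U21 at R1. The falls together held 68811, 60781 and 77010 CPM at D7 and 23749, 20858 and 22500 CPM at R1. Strong peaks weigh most in these sums. Among the rises chr8:55178466-55179112 alone held 28329, 22283 and 15104 CPM at R1. Among the falls chr10:86337691-86337788 alone held 10552, 9471 and 13855 CPM at D7. The D7 libraries were close to each other for the rises, while U18 stood well above U20 and U21 at R1. U18 was the highest R1 library in 1171 of the 1532 rises, U20 in 237 and U21 in 124. The same count was not made over all tested peaks, where the R1 library medians ran from 11.9 to 14.4 CPM. Without U18, 2021 peaks were called, 1244 higher and 777 lower, and 1794 of the 2285 calls stayed.

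Among the rises, 86 peaks had 0 tags in all 3 D7 libraries, and 1 fall had 0 tags in all 3 R1 libraries. With these peaks set at the bound that 3 tags over the group allow, the median of the rises stayed at 2.30. The share of rises is given by level as a description. The mean uses the same D7 and R1 values as the calls, and every peak has at least 10 TPM in 1 library. Peaks with a low mean could thus enter through the group where they were high. Of 3355 peaks with a mean of 3 to 10 CPM, 21.5% rose, of 328 peaks over 300 CPM 10.7% rose, and of 637 peaks under 3 CPM 6.28% rose, while falls were 11.6% of the last. The median peak width was 210 nt for the rises, 220 nt for the falls and 208 nt for all tested peaks. Falls were 5.17% of the peaks up to 50 nt wide, 11.1% of those over 50 to 100 nt, 6.98% over 100 to 200 nt, 5.5% over 200 to 400 nt and 12.9% of the wider ones, with no steady order by width. Plus-strand peaks made up 51.6% of the rises, 45.9% of the falls and 49.3% of the tested peaks.

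Across chromosomes the share of rises ran from 9.05% of 961 peaks on chromosome 3 to 25.5% of 322 peaks on chromosome 13 and 24.5% of 318 on chromosome 17, leaving out chromosome Y with 2 peaks. The share of falls was 17.8% of 314 peaks on chromosome 15, where 38 of the 56 falls came from a single stretch described below.

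The 10 largest rises, ranked among called peaks whose groups did not overlap and whose D7 or R1 mean reached 10 CPM, were all at 0 in every D7 library. Their order follows fitted fold changes that depend on the prior count, so the bounds given do not run in the same order. The first was chr14:34354461-34354544 (plus strand), an 84 nt peak with 0 CPM in U1, U2 and U3 and 91.2, 20.2 and 18.8 CPM in U18, U20 and U21, at least 272-fold higher at R1 over the pooled groups (adjusted p = 0.000107, edgeR). The second was chr6:6328318-6328656 (minus strand), with 84.8, 20 and 24.3 CPM at R1, at least 275-fold higher (adjusted p = 9.23e-06, edgeR). Next was chr1:152986057-152986378 (minus strand), with 80.2, 19.7 and 24.3 CPM at R1, at least 265-fold higher (adjusted p = 5.48e-05, edgeR). In these 3 peaks U18 held most of the R1 signal, and U20 and U21 lay close to each other.

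U18 was also the highest R1 library in the other 7. The peak at chr3:149800130-149800320 (minus strand) held 75.7, 18.4 and 18.8 CPM at R1. The peak at chr6:146123854-146124110 (minus strand) held 84.9, 3.62 and 23.4 CPM, and the peak at chr5:126218069-126218342 (minus strand) 51.6, 21.3 and 26.3 CPM. Their bounds were at least 238-fold, 239-fold and 219-fold. The peak at chr8:5734302-5734392 (plus strand) held 36.4, 22.1 and 10.8 CPM, and the peak at chr15:48449399-48449688 (minus strand) 39.1, 17.5 and 12.46 CPM, both at least 147-fold higher. The ninth, chr1:220265860-220265900 (minus strand), rested mostly on U18, with 56.9 CPM against 0.974 in U20 and 8.33 in U21, and its call was lost without U2 and in DESeq2. The tenth, chr1:241962578-241962633 (minus strand), held 39.2, 14.3 and 11.1 CPM. Its call and that of chr6:146123854-146124110 were also lost in DESeq2. With the lane as a term, each of the largest rises that entered the fit over all 42 libraries lost its call.

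These 10 peaks were nearly silent in the other soleus libraries too, which is a description. Every peak of the table has at least 10 TPM in 1 library, so a peak low elsewhere could enter it through R1 alone. Their highest level in any control, D1, D3, R3 or R7 library was 1.63 CPM, in an R7 library at the chr14 peak. In the EDL of the same 6 rats the chr6:6328318-6328656 peak was the highest of the 9 that entered the fit over all 42 libraries, with 0.556 to 4.88 CPM.

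The rises that carried most tags were at work already during unloading. The highest was chr8:55178466-55179112 (plus strand), which held 2612, 2808 and 2368 CPM at D7 and 28329, 22283 and 15104 CPM at R1, a log2 fold change of 3.08 ± 0.40 (SE, adjusted p = 3.22e-05, edgeR). It ran at 5011 to 5777 CPM in controls, 4079 to 6619 at R3 and 3287 to 11819 at R7, so the R1 libraries were above every other soleus library. The call of this peak was lost with the lane as a term. The second was chr12:23840390-23841131 (minus strand), which rose from 552, 653 and 712 CPM to 24438, 8111 and 8390 CPM, by 4.42 ± 0.49 on the log2 scale (adjusted p = 7.68e-06, edgeR). Its controls held 376 to 461 CPM, at R3 it held 507 to 808 CPM, and at R7 504 to 1752 CPM.

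The peak at chr12:36638354-36638891 (plus strand) changed less, from 1024, 1013 and 736 CPM to 4810, 1517 and 1780 CPM, with a log2 fold change of 1.55 ± 0.45 (adjusted p = 0.0112, edgeR). Its call rested on U18 and was lost without that library, and also with the lane as a term. A pair of peaks on the minus strand of chromosome 20 closed this ranking. The first, chr20:4877374-4879965, went from 27.2, 57.7 and 53.6 CPM to 6928, 939 and 1972 CPM, by 6.15 ± 0.75 on the log2 scale (adjusted p = 1.83e-05, edgeR). The other, chr20:2699756-2701913, held almost the same values in every library, and rose by 6.23 ± 0.77 (adjusted p = 2.07e-05, edgeR).

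Such pairs were counted across all tested peaks. The study's methods let a read map to up to 20 loci, and whether copies of a sequence share tags here was not tested. Peaks more than 20000 nt apart were grouped when both held at least 10000 tags over the 42 libraries and their counts agreed within sampling noise (chi-square per degree of freedom up to 1.5). Of the called peaks with that many tags, 11 of 193 rises and 32 of 191 falls belonged to such groups, against 244 of 2567 tested peaks. The chromosome 20 pair was 1 of these groups, and the peaks chr6:135050360-135050425 and chr13:6347408-6347581 (both minus strand) formed another, with 2750 and 2722 CPM in U18. A set of 4 plus-strand peaks on chromosomes 5, 7, 10 and 15 also rose together, with log2 fold changes of 1.67 to 1.80.

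**Figure D2:**
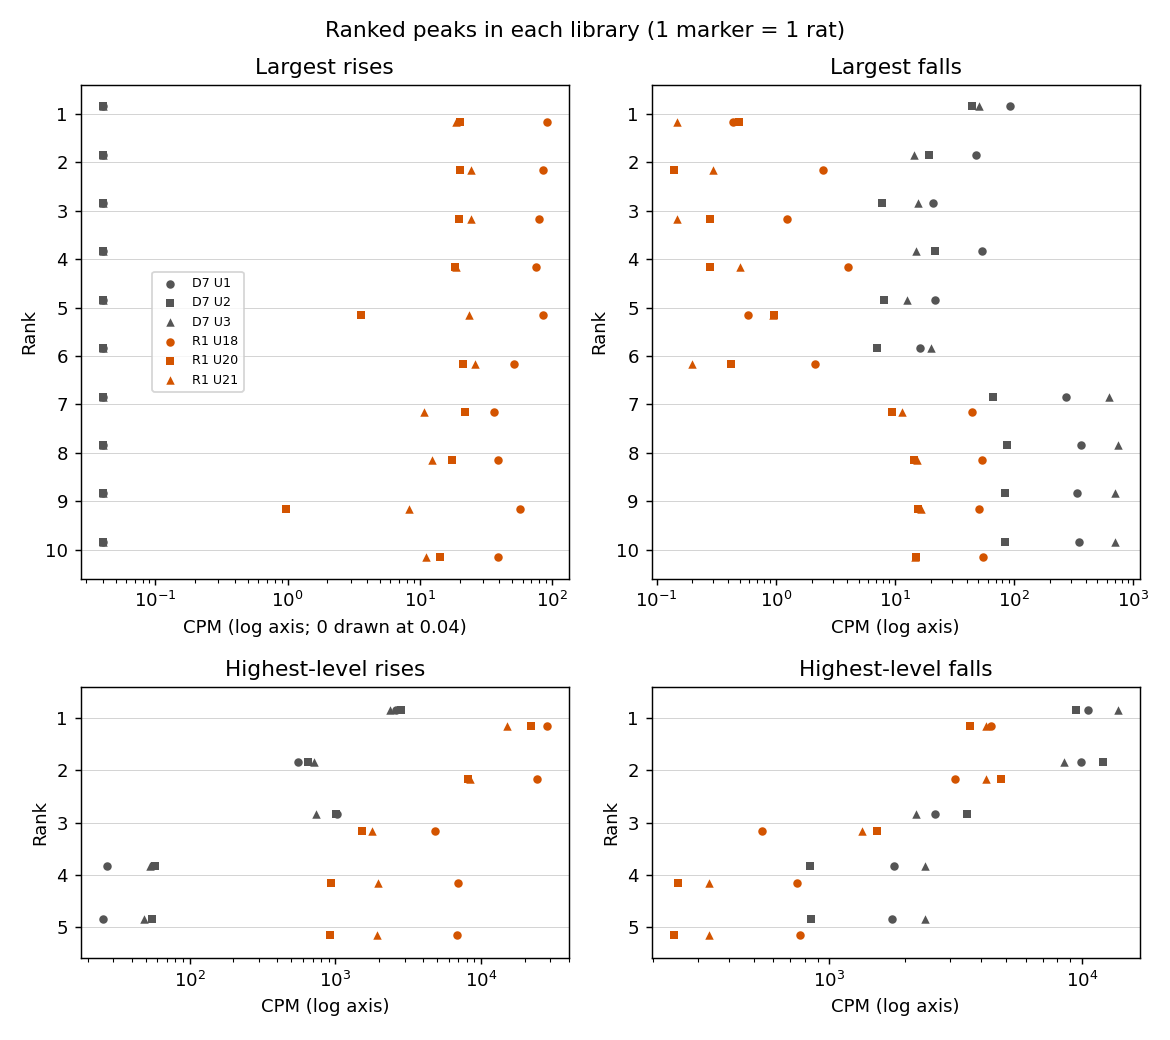
Each row of a panel is 1 ranked peak and each marker is its level in 1 library (CPM, log axis), grey for the 3 D7 rats and orange for the 3 R1 rats. All D7 values of the 10 largest rises are 0 and are drawn at 0.04, and in most rises U18 (orange circle) lies to the right of the other R1 rats.

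Among the falls, the peak that carried most tags was chr10:86337691-86337788 (plus strand), which held 10552, 9471 and 13855 CPM at D7 and 4376, 3607 and 4185 CPM at R1, a log2 fold change of −1.48 ± 0.41 (adjusted p = 0.0087, edgeR). Control libraries held 8563 to 8689 CPM there, between the groups. The second was chr1:72889011-72889390 (plus strand), which fell from 9934, 12171 and 8509 CPM to 3148, 4802 and 4182 CPM, with a log2 fold change of −1.34 ± 0.32 (adjusted p = 0.00366, edgeR). In EDL this peak was weaker, at 219 to 1334 CPM over the D7 and R1 libraries. Next was chr2:189423299-189423727 (plus strand), from 2625, 3521 and 2193 CPM to 539, 1550 and 1340 CPM, with a log2 fold change of −1.28 ± 0.40 (adjusted p = 0.0183, edgeR). It was also weak in EDL, at 54.1 to 309 CPM. All 3 lost their call with tag totals as library sizes, the chr1 and chr2 peaks also without U18 and with all 42 libraries in the fit, and the chr2 peak also without U2. With the lane as a term all 3 calls were lost, and the fold change of the chr1 peak turned to 0.12 on the log2 scale.

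The other two, chr14:46646986-46647733 and chr5:91135829-91136552 (both minus strand), had agreeing counts in the sense above, together with a peak at chr6:30631993-30632478. The chr14 peak held 1801, 834 and 2384 CPM at D7 and 743, 252 and 332 CPM at R1. U2 at D7 and U18 at R1 were close, and the calls of both peaks were lost without U1, U3, U20 or U21 in turn. Both were also lost with the lane as a term, and that of the chr5 peak with tag totals as library sizes.

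The largest fall by fold among the peaks eligible for ranking was chr15:88692545-88692562 (minus strand), an 18 nt peak that held 92.2, 44.2 and 50.9 CPM at D7 and 0.440, 0.487 and 0.150 CPM at R1, with a log2 fold change of −7.46 ± 2.16 (adjusted p = 0.0117, edgeR). This peak was on or off by rat and in both muscles alike. Over the 42 libraries it held at least 28.4 CPM in every library of 12 rats and at most 1.41 CPM in every library of the other 9 rats, with the soleus and EDL of each of the 21 rats on the same side. It was on in all 3 rats of D3, D7 and R3, the R3 rat U4 of lane 4 included, off in all 3 of R1, and on in 1 rat each of the controls, D1 and R7. In EDL it held 87.4, 43.1 and 36.7 CPM at D7 and 0.344, 0.556 and 0.146 CPM at R1. No other of the 9840 tested peaks split all rats in this way with a gap of at least 4-fold and at least 6 libraries on each side, a criterion set after these values were seen. The narrow peak at chr20:5414399-5414478 (plus strand) fell from 21.7, 8.03 and 12.6 CPM to 0.586, 0.974 and 0.947 CPM, with a log2 fold change of −4.04 ± 1.03 in soleus and −4.09 ± 1.28 in EDL (SE). It was also high at D3, with 11.9 to 15.7 CPM, and at R3, with 10.9 to 24.8 CPM.

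A further 4 of the largest falls had wide spreads within groups. The peak at chr3:139887001-139887028 (minus strand) held 47.8, 19.3 and 14.5 CPM at D7 and 2.49, 0.139 and 0.299 CPM at R1. The peak at chr1:27723190-27723212 (plus strand) held 54.3, 21.8 and 15.0 CPM at D7 and 4.03, 0.278 and 0.499 CPM at R1. The peak at chr17:66325222-66325418 (plus strand) held 20.9, 7.86 and 15.6 CPM at D7 and 1.246, 0.278 and 0.150 CPM at R1. U18 was the highest R1 library in each of them, and the D3 medians were 0.325 to 0.626 CPM, with 1 D3 rat in each peak at 11.05 to 31.4 CPM. The peak at chr15:33614994-33615057 (plus strand) held 16.3, 7.07 and 20.2 CPM at D7 and 2.13, 0.417 and 0.199 CPM at R1. The calls of all 4 were lost without U20 and without U21, those of the chr3, chr1 and chr15 peaks also without U1, those of the chr1 and chr15 peaks without U3, and that of the chr1 peak without U2. With the lane as a term the sign turned for the chr1 peak (0.11), the chr17 peak (2.25) and the chr15 peak (2.96).

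The remaining 4 largest falls were minus-strand peaks of chromosomes 6 and 14 with nearly equal profiles. The peak at chr14:46590173-46590655 held 365, 86.8 and 741 CPM at D7 and 53.5, 14.4 and 15.2 CPM at R1, with a log2 fold change of −3.84 ± 1.18 (adjusted p = 0.0159, edgeR). The peaks at chr6:30640868-30641341 and chr14:46525628-46526133 had the same counts within sampling noise, and chr6:30640407-30640823 had a similar order of libraries, with 67.3 to 630.4 CPM at D7. U3 held most of the D7 signal, and all 4 calls were lost without U3, without U20 and without U21.

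The called peaks were also placed along the strands. When tested peaks of a strand with gaps of up to 20 kb were joined, 7241 groups formed, of which 6098 held a single peak. In all, 1272 groups held a rise and 472 held a fall. Of the 255 groups with at least 2 calls, the only ones that could hold both, 13 did. Of the 753 falls, 382 shared a group with another fall, and of the 1532 rises 409 with another rise. The 8 groups with most falls held 135 falls (17.9%), and the 8 with most rises 59 rises (3.85%). The first held 8 to 101 tested peaks each and the second 5 to 15. These counts depend on how many peaks a group holds, and they were not compared with the same share over all tested peaks.

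The row with most falls was on the minus strand of chromosome 15 from 33607830 to 33657899, where 38 of 54 tested peaks fell and none rose. The summed level there was 3722, 3194 and 3459 CPM at D7 and 973, 1399 and 1342 CPM at R1, and with tag totals 23 of its peaks fell. On the minus strand of chromosome 3 from 37658128 to 37855961, all 101 tested peaks had a negative log2 fold change, with a median of −1.04, and 25 passed the cutoffs. That row went from 2973, 3106 and 3100 CPM to 1822, 1731 and 1494 CPM. This row of 198 kb gave 11 calls without U21, 39 without U2 and 6 with tag totals.

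The rows of falls given next were shorter, while the row of 88.6 kb that holds the Myh4 window is described with that gene. On the minus strand of chromosome 7 from 29091397 to 29139560 all 16 tested peaks fell, also without each of the 6 libraries in turn, and the summed level dropped from 436, 270 and 307 CPM to 48.1, 65.4 and 78.7 CPM. Along chromosome 12, 39553698 to 39603279 (plus strand), 13 of 16 fell, from 2751, 2820 and 2712 CPM to 1296, 1379 and 1248 CPM. On the minus strand of chromosome 17 from 66303728 to 66343062, 10 of 12 fell. The row at chromosome 10, 86313309 to 86338706 (plus strand), where 7 of 8 peaks fell, holds the strongest falling peak described above. It gave 2 calls without U3 or without U18 and 1 with tag totals. With the lane as a term the 8 groups with most falls kept 0 calls each, the chromosome 7 row included.

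The 8 groups with most rises spanned 3.14 to 33.9 kb and the 8 with most falls 15.0 to 198 kb, so their spans overlapped. With the lane as a term the 8 groups with most rises kept 0 to 2 calls each. Along chromosome 4, 56710804 to 56744718 (plus strand), 12 of 15 tested peaks rose, and the summed level went from 527, 732 and 488 CPM to 4753, 1755 and 1233 CPM. That number was 5 without U2 and 6 without U18. On the minus strand of chromosome 13 from 100297982 to 100321785 all 8 peaks rose, from 19.3, 15.1 and 10.9 CPM to 506, 244 and 207 CPM. Along chromosome 5, 57028361 to 57039447 (plus strand), all 7 rose, from 28.5, 38.1 and 47.1 CPM to 3251, 728 and 855 CPM.

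On the minus strand of chromosome 6, 2 rows of 8 peaks each, from 135045020 to 135050425 and from 135107489 to 135113023, rose in full. The first held 16.3, 16.8 and 23.5 CPM at D7 and 3165, 751 and 709 CPM at R1. The second held 18.5, 17.8 and 23.8 CPM at D7 and 3172, 764 and 713 CPM at R1. A further row, of 6 peaks on the minus strand of chromosome 13 from 6344438 to 6347581, ran at 13.1, 14.6 and 19.2 CPM and at 3015, 721 and 686 CPM. Each of these rows has its own peaks and positions, but the levels of the 3 are nearly equal in all 6 libraries, and their strongest peaks include the pair with agreeing counts.

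Rises and falls also differed in what lay on the opposite strand. A tested peak of the opposite strand lay within 1000 nt of 6.40% of the rises, 17.4% of the falls and 11.2% of the peaks that were not called. Where a rise had such a partner, the partner rose in 48 of 98 cases and fell in 1. Where a fall had one, it fell in 61 of 131 cases and rose in 1. The partner of a peak that was not called rose in 58 of 849 cases and fell in 113.

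The position of the start within a peak was compared for peaks with at least 100 pooled tags in the control, D7 and R1 groups. The most used position was the same at D7 and R1 in 396 of 547 rises (72.4%), in 414 of 584 falls (70.9%) and in 4794 of 6468 peaks that were not called (74.1%). It had moved by over 20 nt in 13% of these rises, 15.9% of these falls and 10.4% of the peaks that were not called. Between controls and D7 the position was the same in 83.9%, 79.5% and 83.4% of the same peaks. In the 5 highest rises the dominant start of the pooled tags did not move. In the 5 highest falls it moved by 3 nt at chr10:86337691-86337788 and by 13 nt at the pair on chromosomes 5 and 14. These moves came from U20 and U21. In U18 the D7 position held more tags than the R1 position at each of these peaks, with 40.1% against 31.8% at the chr10 peak. In the chr12:23840390-23841131 peak a single position held 82.8% to 86.9% of the tags at D7 and 88.3% to 90.8% at R1.

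The called peaks were followed through the other phases. This is a description for the levels of D7 and R1, and other contrasts of the same fit where a phase was compared with the control. The median of the group means over the rises was 3.87 CPM in controls and 3.48, 4.05 and 3.30 CPM at the D1, D3 and D7 stages, then 16.7 CPM at R1, 6.07 at R3 and 6.35 at R7. Over the falls these medians were 13.6, 13.5, 12.2, 15.2, 4.64, 8.12 and 9.76 CPM. At R3 and R7 the medians of both sets lay between the D7 and the R1 level, while the summed falls of the R7 rats ran from 31901 to 79932 CPM, the highest above every D7 library.

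At R3, 79 of the rises (5.16%) were higher than control and 0 lower in edgeR, against 1.22% and 0.437% of all tested peaks. At R7, 177 of them (11.6%) were higher and 2 lower, against 2.82% and 1.37% of all peaks. Of the falls, 24 (3.19%) were lower at R3 and 60 (7.97%) at R7, and 0 were higher at either. At D1, 6 of the rises were higher and 36 lower than control, against 0.854% and 1.12% of all peaks. At D3, 3 of the rises were higher and 6 lower, against 0.417% and 0.315%. Of the falls, 20 (2.66%) were higher and 17 (2.26%) lower at D1, and 10 (1.33%) were higher and 5 (0.664%) lower at D3. These comparisons use no D7 or R1 library, but they share the control libraries with each other.

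**Figure D3:**
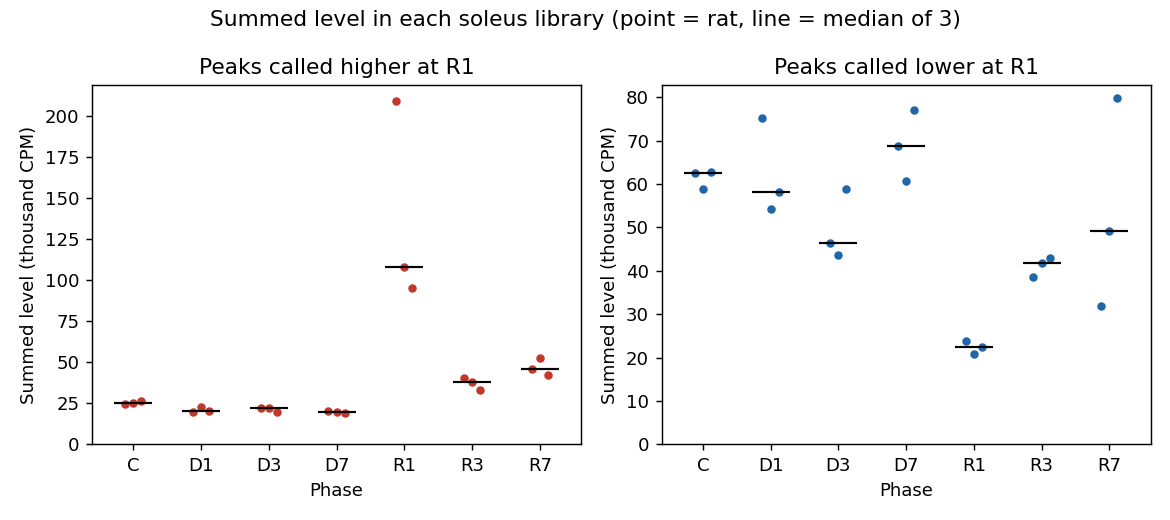
Each point is the summed level (1000 CPM) of the 1532 peaks called higher (left) or the 753 called lower (right) in 1 soleus library, by phase, with a line at the median of the 3 rats. The R1 rats hold the highest sums on the left and the lowest on the right, and the R3 sums lie between D7 and R1 in both panels.

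The sums of rats of other phases that were run in lanes 3 and 4 are given here as values. The R3 rat U4 was run in lane 4 with the R1 rats, and held 40530 CPM in the rises and 38562 CPM in the falls. The R3 rats U16 and U5 of lane 5 held 38027 and 32995 CPM in the rises and 41816 and 42867 CPM in the falls. U4 was thus the highest R3 rat in the rises and the lowest in the falls, on the side of the R1 rats. Whether the lane caused this was not tested. The sets were chosen on the R1 and D7 libraries, so the place of those libraries beside U4 is a description. The D3 rat U11 was run in lane 3 with the D7 rats and held 19464 CPM in the rises, beside 22116 and 22277 CPM in the D3 rats of lane 2. In the falls U11 held 58992 CPM, nearer to the D7 rats than the D3 rats of lane 2 with 46499 and 43672 CPM. A fit over all 42 libraries with the lane as a term, in which 9 of the 14 groups were split over lanes, called 51 peaks, 40 higher and 11 lower, with a median standard error of 0.84 in place of 0.34. The fold change kept its sign in 2078 of the 2281 called peaks that entered this fit.

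The EDL of the same rats gave the same contrast in the fast muscle, with R1 in lane 4 and D7 in lanes 3 and 6. In EDL, 2 of 9343 tested peaks (0.0214%) were called, 1 in each direction, and 576 had an unadjusted p under 0.05. The soleus rises had a median log2 fold change of −0.10 in EDL, with 580 of 1528 above 0, and the soleus falls had a median of −0.10, with 303 of 753 above 0, beside a median of 0.00 and 4827 of 9835 above 0 over all tested peaks. The difference between the muscles was tested as an interaction over all 42 libraries. It was called in 1526 of 9945 peaks (15.3%), 980 higher (9.85%) and 546 lower (5.49%) in soleus. Without U3 it was called in 907 peaks, and with all libraries thinned to the shallowest in 850. Of the soleus rises 882 of 1528 (57.7%) were called higher in soleus and 0 lower, and of the falls 314 of 753 (41.7%) were called lower and 0 higher. The soleus change that defines both sets is part of this interaction, so these counts are a description and their direction is no independent evidence.

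**Figure D4:**
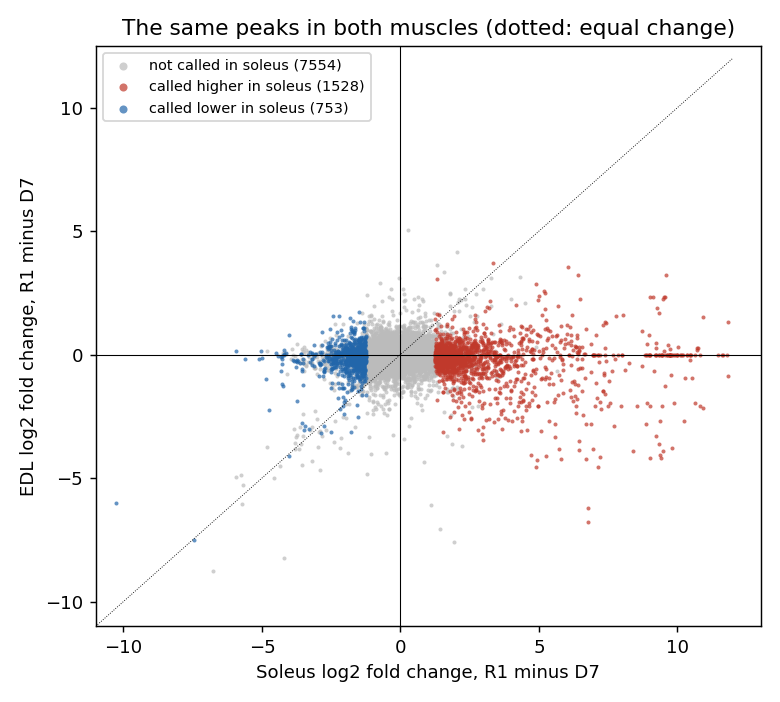
Each point is 1 peak, with its log2 fold change (R1 minus D7) in soleus on the x axis and in EDL on the y axis, and the dotted line marks equal change. Most peaks called in soleus lie near 0 on the EDL axis, a row of red points at exactly 0 has no tags in the EDL groups, and the blue point near −7.5 on both axes is the peak that was on or off by rat.

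Of the 10 highest-level peaks, 4 rises were called in the interaction, while chr12:36638354-36638891 and all 5 falls were not, with adjusted p of 0.0501 to 0.364 in edgeR. These peaks were chosen among soleus calls, and the soleus change is part of the interaction. Its direction is therefore no independent evidence for them. The peak at chr8:55178466-55179112 held 2508 to 3678 CPM in EDL at D7 and 914 to 2711 at R1, and its change was larger in soleus by 3.65 ± 0.61 on the log2 scale (adjusted p = 0.000102, edgeR). The peak at chr12:23840390-23841131 held 259 to 621 CPM in EDL at D7 and 134 to 160.5 at R1, and differed by 5.92 ± 0.58 (adjusted p = 2.08e-08, edgeR). At the pair on chromosome 20 the EDL libraries held 9.75 to 17.9 CPM at D7 and 1.11 to 5.12 CPM at R1.

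Only 2 genes can be placed on Rnor_6.0 here, from the study's own browser view, and both windows are approximate. Rtkn encodes rhotekin, a scaffold protein of signalling inside the cell. Its window on the plus strand of chromosome 4 held 21, 26 and 4 tags at D7 and 562, 174 and 349 tags at R1. This is 3.89, 2.27 and 1.09 CPM against 41.2, 12.1 and 17.4 CPM, a 9.75-fold difference of the means, with every R1 library above every D7 library (exact permutation test, two-sided, p = 0.10, the smallest that 3 against 3 can give). Controls held 2.02 to 2.82 CPM and R3 1.99 to 3.42 CPM, so the high level was found at R1 and at no other phase of soleus.

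The tags of the Rtkn window lay in separate clusters. The kilobase from 114833001 to 114834000 held 3, 2 and 0 tags at D7 and 133, 35 and 84 at R1. The kilobase from 114835001 to 114836000 held 14, 17 and 2 tags at D7 and 273, 72 and 129 at R1. Farther down, the kilobase from 114847001 to 114848000 held 0 tags in each D7 library and 51, 25 and 35 at R1. The window has 1 tested peak, chr4:114835675-114836032 (plus strand), which held 1.11, 0.960 and 0.274 CPM at D7 and 14.1, 2.78 and 3.44 CPM at R1, a log2 fold change of 3.03 ± 0.78 (adjusted p = 0.00556, edgeR). Its call was lost with the lane as a term.

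RefSeq gives Rtkn 2 promoters on GRCr8, 1198 nt apart, and both are shown because the tags of the window fall in more than 1 cluster. The windows run from 250 bases before to 50 bases after the start, on the plus strand of chromosome 4, and capitals mark the GC box letters GGGCGG or their reverse complement CCGCCC. The positions belong to GRCr8 and were not matched to the Rnor_6.0 peaks.
Rtkn promoter 1, chr4:117198525-117198824: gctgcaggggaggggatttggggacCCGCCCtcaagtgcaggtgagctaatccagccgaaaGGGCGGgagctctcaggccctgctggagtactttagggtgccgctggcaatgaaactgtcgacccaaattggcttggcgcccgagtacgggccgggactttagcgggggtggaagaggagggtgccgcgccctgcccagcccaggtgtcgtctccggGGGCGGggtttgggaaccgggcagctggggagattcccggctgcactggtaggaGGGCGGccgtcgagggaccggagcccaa
Rtkn promoter 2, chr4:117199723-117200022: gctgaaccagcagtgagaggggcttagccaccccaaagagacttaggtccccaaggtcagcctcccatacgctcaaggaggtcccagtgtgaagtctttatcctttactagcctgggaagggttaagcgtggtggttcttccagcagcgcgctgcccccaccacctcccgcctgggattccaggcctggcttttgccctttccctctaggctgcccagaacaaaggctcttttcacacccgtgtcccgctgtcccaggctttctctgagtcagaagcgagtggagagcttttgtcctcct
The first holds 4 matches to these letters and 21 CpG, and the second holds 0 matches and 8 CpG. Of 33469 RefSeq promoters of this length, 33.1% hold a match on either strand, and the median number of CpG is 7. Neither holds TATAAA or TTTATA.

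**Figure D5:**
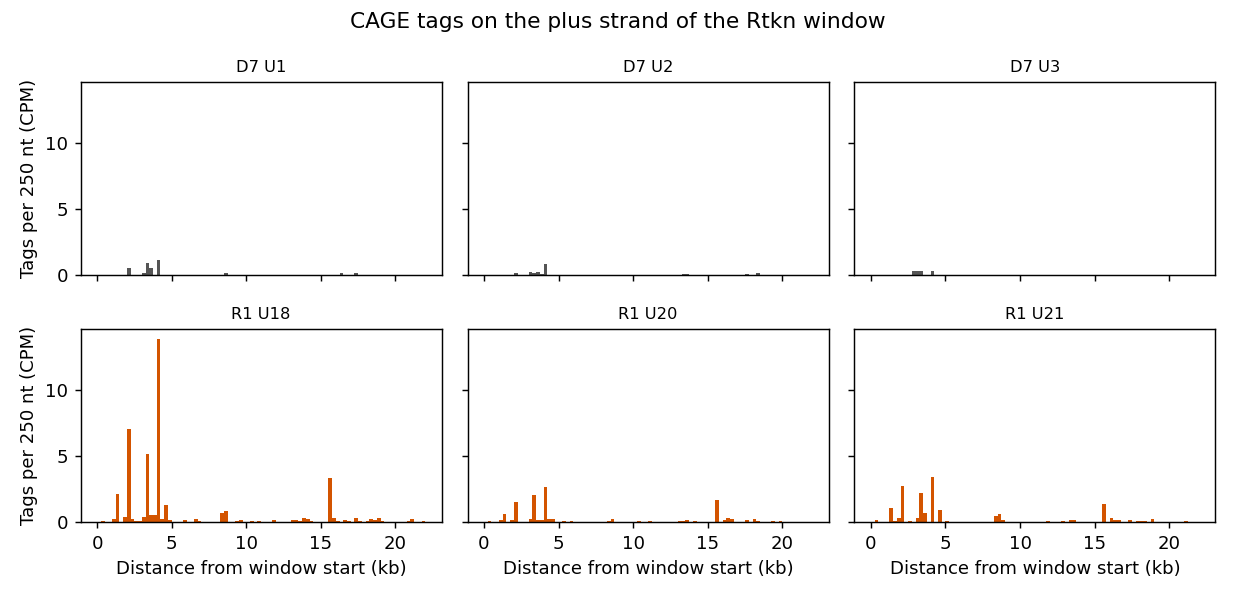
Bars show plus-strand CAGE tags in bins of 250 nt (CPM) along the Rtkn window, by distance from the start of the window (kb), with 1 panel for each library and the same y axis in all. The 3 R1 libraries share clusters in the first 5 kb and near 16 kb, and the D7 libraries hold few tags.

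Myh4 encodes the myosin heavy chain of type IIb fibres, the fastest fibres of rat muscle, and is scarce in soleus. Its window on the plus strand of chromosome 10 held 91, 56 and 39 tags at D7 and 43, 8 and 89 tags at R1. This is 16.9, 4.89 and 10.7 CPM at D7 and 3.15, 0.556 and 4.44 CPM at R1, a ratio of the means of 0.251 without overlap between the groups (exact permutation test, two-sided, p = 0.10). Controls held 7.12 to 40.6 CPM, and the EDL libraries of all phases 799.7 to 3333, on another scale, relative to all tags of a library without TMM. The first kilobase of the window held 2, 1 and 0 tags at D7 and 2, 1 and 5 at R1, too few to compare the use of that start with the rest of the window at this depth. None of the 14 tested peaks of the window was called, while the peaks at 53799803 and 53799928 were called lower in DESeq2 and with all 42 libraries in the fit, the first also with only the 6 libraries and the other also without U2.

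The Myh4 promoter of RefSeq is shown with its TATA box letters (TATAAA or the reverse complement TTTATA) in capitals, beside the GC box promoter of Rtkn above. It lies on the plus strand of GRCr8.
Myh4 promoter, chr10:52421898-52422197: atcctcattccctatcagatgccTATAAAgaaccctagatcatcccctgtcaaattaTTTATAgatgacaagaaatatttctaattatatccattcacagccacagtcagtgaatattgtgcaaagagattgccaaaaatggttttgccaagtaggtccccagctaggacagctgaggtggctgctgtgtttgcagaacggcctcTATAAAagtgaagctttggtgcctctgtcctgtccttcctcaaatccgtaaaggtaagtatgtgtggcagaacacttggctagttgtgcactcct
It holds 3 matches and 2 CpG, and 14.2% of the 33469 promoters hold a match on either strand.

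The tested peaks before the Myh4 window form 1 row with it, chromosome 10 plus strand, 53711560 to 53800141. In the RefSeq gene order Myh4 follows Myh3, Myh2 and Myh1, genes for embryonic and fast myosin heavy chains. Of the 68 peaks of the row 67 had a negative log2 fold change, with a median of −3.01, and 18 fell. The summed level was 292, 74.5 and 84.0 CPM at D7 and 13.1, 3.41 and 28.4 CPM at R1. U1 held most of it at D7, and the number of falls was 1 without U1, 2 without U20 and 4 without U18. It was 0 with the lane as a term, but 45 with DESeq2 and 38 with all 42 libraries in the fit.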

How the data were processed

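CAGE libraries of 50 nt reads were made from soleus and EDL of 21 rats. The authors used Trimmomatic for trimming and STAR for mapping to Rnor_6.0, and let a read map to up to 20 loci. The peak table used here has 9971 peaks and, per its header, came from a clustering of the tag starts of all 42 libraries with a tool other than the one the methods name, and whether it rests on those alignments is not given in the sources used here. The submitters' notes give Trimmomatic 0.38 and also list BWA and HISAT2 with no role. The deposited peak table holds, per the file headers, rescued tag counts of each library in each peak, not normalized. Its deposited TPM columns are tags scaled to the total of the library and were not used for tests, and every peak has at least 10 TPM in 1 library. The deposited CTSS tables hold tag counts per position and were used for start positions and gene windows.

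Groups came from the labels. Counts of the 21 soleus libraries were fitted together in edgeR 4.0.16 (R 4.3.3), with TMM scaling, filterByExpr (129 of 9969 peaks not tested) and the quasi-likelihood test with Benjamini-Hochberg adjustment. The median biological coefficient of variation was 0.284. The standard error is the log2 fold change divided by the root of F. The interaction with muscle and the EDL levels and fold changes come from 1 fit of all 42 libraries, and the EDL calls from a fit of the 21 EDL libraries. Counting error and the bounds for groups at 0 (3 tags over the 3 libraries of a group, 0.146 CPM at D7 and 0.0624 CPM at R1) cover tag counting only. Code was tested on simulated data. Alternatives were DESeq2 1.42.0, other size factors, no count filter, other sets of libraries, thinning, a lane term, and leaving out each library.

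Peaks were named by rank among called peaks without overlap of the groups and with a D7 or R1 mean of at least 10 CPM. These were the 10 largest rises and falls and the 5 of each with the highest mean over both groups. The tested peaks of the Rtkn and Myh4 windows were added. The members and lists were chosen with earlier results of these data known. R1 and D7 soleus come from different rats, while the number in a title names the rat that gave both muscles. Deviations of its soleus and EDL from their group means correlated between −0.336 and 0.298 over 9238 peaks. Marker lists and gene names of peaks were not analysed here.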

Additional observations from a re-analysis of the deposited data

Results flagged for a closer look

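The difference between soleus and EDL in the R1 against D7 change was tested as an interaction in edgeR over all 42 libraries, and 1526 of 9945 peaks differed, 980 with the larger value in soleus and 546 with the lower. Of the ranked peaks, 7 differed, all with a larger change in soleus, and they are given here as values. All were ranked among peaks called in soleus. That soleus change is part of the interaction, so its direction is no independent evidence. In log2 units the difference was 3.65 ± 0.61 (SE) at chr8:55178466-55179112 and 5.92 ± 0.58 at chr12:23840390-23841131. At the pair of chromosome 20 peaks that hold nearly equal counts, chr20:4877374-4879965 and chr20:2699756-2701913, it was 7.77 ± 0.89 and 8.0 ± 0.88. Peaks with 0 tags in soleus at D7 have fitted differences that depend on the prior count and are no bounds. These were 12.32 ± 1.34 at chr6:6328318-6328656, 9.04 ± 2.05 at chr15:48449399-48449688 and 12.55 ± 3.56 at chr1:241962578-241962633, whose EDL levels in these 6 rats were at most 4.88, 1.89 and 0.129 CPM. Both muscles of a rat shared their R1 lane, and the cause of these differences was not tested.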

How the results depend on the processing

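The comparison called 2285 peaks. A fit of 42 libraries with the lane as a term called 51, 40 higher and 11 lower. Without a fold cutoff 3929 were called, 2335 higher and 1594 lower, and with tag totals as library sizes 469 were lower. The share of higher calls was 79.7% with tag totals, against 67%. Leaving out 1 library gave 2021 to 2287 calls, 1244 to 1592 higher and 610 to 793 lower. DESeq2 called 2465. Of the 30 ranked peaks, 13 kept their call under all fitted settings other than the lane term. Under the lane term 3 of the 29 that entered that fit kept it, 22 lost it and 4 turned sign.

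The interaction called 1526 peaks. The fit with each rat as a block (replicate block, paired muscles) called 1559, and it moved no count by over 1.5 times. With the lane as a term, chosen after seeing the data, 1132 were called. Thinning to the shallowest library gave 850, 538 higher and 312 lower. Without U3 it called 907, 609 higher and 298 lower, and the other leave-outs reached up to 1495, 894 higher and 601 lower. With the 12 libraries alone 73.2% of the calls were higher, against 64.2%.

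Signs turned under the lane term for chr17:66325222-66325418 (2.25), chr1:27723190-27723212 (0.11), chr15:33614994-33615057 (2.96) and chr1:72889011-72889390 (0.12), all log2 fold changes. In the Myh4 window, where no peak was called, it turned to 1.08, 0.69, 0.037, 0.47, 0.33 and 0.51 for the peaks starting at 53789097, 53792018, 53794198, 53795772, 53796697 and 53799803. Leaving out 1 library gave −1.43 to 0.21 for the peak at 53789097, −1.50 to 4.01 for 53792018, −0.71 to 0.35 for 53796697 and −0.41 to 0.82 for 53798187. The causes were not tested. The shallowest of the 6 soleus libraries, U3, holds 4868926 tags, and the shallowest EDL library of the series 1778712, and the Myh4 window held 8 to 91 tags per library.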

Other observations

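The minus-strand peak on the mitochondrial chromosome, outside the comparison, held 2604, 1330 and 2223 CPM at D7 and 876, 515 and 570 CPM at R1, with a log2 fold change of −1.65 ± 0.44 (SE, adjusted p = 0.00747, edgeR). The plus-strand peak changed by −0.64 (adjusted p = 0.216, edgeR).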
